A study of Mus musculus with 4 samples.

Results

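The mitochondrial genome of the mouse was followed gene by gene in livers that lack Cpt1a. All genes that the count table places on chromosome MT were taken, which gave 37 of the 54532 genes: 13 mRNA genes, 2 rRNA genes and 22 tRNA genes. The choice used only the chromosome, not any measured level. Bulk RNA was sequenced from 4 mouse livers, each labelled as a liver-specific Cpt1a knockout after a 24 h fast. The names of the authors' comparisons carry AlbCre, a Cre recombinase driven by the albumin promoter, which acts in hepatocytes. Age was not stated. Nor do the labels say whether each library is a different mouse, and the spread over livers could be technical. The authors' 3 deposited comparison tables add a group labelled Cpt2, also named with AlbCre, whose samples belong to an earlier series, and a reference group. That group's name in the tables combines Rab30 with Cpt2. The design names littermate controls and a 24 h fast for all mice, but the sources used here do not say which mice make up the reference group. Only the Cpt1a knockout livers are samples of this series, and other per-sample columns deposited with them were not used. No test between groups was therefore fitted, and every contrast below is the authors'.

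Cpt1a sits on the outer mitochondrial membrane and makes the acylcarnitines in which long-chain fatty acids enter the organelle, and Cpt2, on the inner membrane, turns them back into acyl-CoA for oxidation. The mitochondrial genome encodes core subunits of respiratory complexes I, III and IV and of ATP synthase, together with the rRNAs and tRNAs that translate them. Both strands are transcribed as long RNAs that cover many genes, and the tRNAs, which lie between the other genes, are cut out to release mRNAs and rRNAs. The steady level of each RNA then depends on its own stability, and proteins made from nuclear genes carry out the cutting, tailing, modification and decay.

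Total counts were 13138884 to 14116441 per library, and the Cpt1a gene itself stood at 24.4, 28.6, 31.1 and 36.9 FPKM in livers 1 to 4. In the authors' deposited tables Cpt1a stood at -2.79 on the log2 scale (adjusted p = 5.27e-51) against the reference and at -3.52 (adjusted p = 7.11e-82) against the group labelled Cpt2. Cpt2 itself did not pass for the group labelled Cpt2 against the reference, at -0.07 (adjusted p = 0.837), nor for the Cpt1a knockout against the group labelled Cpt2, at 0.45 (adjusted p = 0.0607), in the authors' deposited tables. Its RNA level thus does not check that label, and which part of the gene was deleted was not given in the sources used here. FPKM is reads per 1000 bases of gene model and per 1000000 reads. All 7 hepatocyte markers examined exceeded 1 FPKM and summed to 19280 to 27790 FPKM per liver. So did 5 of 5 Kupffer cell, 5 of 5 endothelial, 4 of 4 stellate and 3 of 3 red blood cell markers, with sums of 99.3 to 125.2, 41.5 to 47.2, 18.9 to 25.1 and 147.2 to 409.2 FPKM. Of 4 bile duct markers none did, and 1 of 5 lymphocyte and 1 of 3 neutrophil markers did, with sums of 1.01 to 2.11, 2.41 to 3.19 and 1.72 to 3.48 FPKM. The 3 skeletal muscle markers were at 0 in every liver. In whole liver, fewer cells of a type and less RNA per cell cannot be told apart. Values per sample of the other groups were not used here, so whether cell makeup moved with the contrasts was not tested.

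Some of these genes share sequence with the nuclear genome or with each other, which decides how their counts can be read. Gene sequences were taken from GENCODE M21 transcripts (GRCm38). The first pair shows the start of mt-Nd3 (chrMT:9459-9518) and of Gm28438, an annotated nuclear pseudogene on chromosome 1. The capital marks the one base that differs in the 345 aligned bases, T3C, counted from the first base of mt-Nd3.
mt-Nd3: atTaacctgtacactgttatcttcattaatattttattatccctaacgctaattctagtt
Gm28438: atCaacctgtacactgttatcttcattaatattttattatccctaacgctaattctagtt

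The second set shows mt-Co1 (chrMT:6390-6449) beside the copy of its end on chromosome 1, Gm29216, where the capital marks A1066T, the one difference in 483 aligned bases.
mt-Co1: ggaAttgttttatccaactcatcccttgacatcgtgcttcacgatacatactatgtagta
Gm29216: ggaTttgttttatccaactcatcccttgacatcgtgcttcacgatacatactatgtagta

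A more distant copy of mt-Co1, Gm13340 on chromosome 2, differed at 37 of 1545 bases, and 4 of these fall in the window chrMT:5993-6052, in capitals here.
mt-Co1: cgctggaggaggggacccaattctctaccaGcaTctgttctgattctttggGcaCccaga
Gm13340: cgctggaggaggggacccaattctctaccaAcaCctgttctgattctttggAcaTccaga

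The chromosome 1 copies lie together in a single stretch. No genome sequence was aligned, so bases between the annotated pseudogenes were not compared. Its 7 annotated pseudogenes, chr1:24611535-24616197 on the minus strand, ran in the same order as chrMT:6390-11042, and differed from the mitochondrial genes at 2 of 4140 aligned bases. By position the stretch spans 11 mitochondrial genes whole, namely mt-Co2, mt-Atp8, mt-Atp6, mt-Co3, mt-Nd3, mt-Nd4l and the tRNA genes mt-Ts1, mt-Td, mt-Tk, mt-Tg and mt-Tr. It covers the end of mt-Co1 and the start of mt-Nd4 in part. Of the 50-base windows of mt-Co2, 100% had an identical match in another annotated transcript; the share was 99.5% for mt-Atp6, 99.9% for mt-Co3, 98.0% for mt-Nd3 and 98.8% for mt-Nd4l. It was 62.2% for mt-Nd4 and 51.1% for mt-Co1, and 0 for mt-Nd1, mt-Nd6, mt-Cytb and mt-Rnr1. No annotated pseudogene transcript covers mt-Atp8 or any of the 5 tRNA genes whole, and Gm10925 holds the last 43 bases of mt-Atp8. That these genes were copied too is inferred from their position in the stretch.

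Neighbouring genes also overlap within the mitochondrial genome, mt-Nd4l and mt-Nd4 by 7 bases and mt-Atp6 and mt-Co3 by 1. The longest such overlap between mRNA genes of the plus strand is shown. The last 43 bases of mt-Atp8 are the first 43 of mt-Atp6 (chrMT:7927-7969), read in different frames, with the start of mt-Atp6 and the last codon of mt-Atp8 at the ends of the run.
mt-Atp8 and mt-Atp6: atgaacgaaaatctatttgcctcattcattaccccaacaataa

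The 37 genes took 8.79, 10.9, 9.97 and 10.4% of all counts in livers 1 to 4, with an SD of 0.886 percentage points (n = 4). Of those counts the mRNA genes held 97.2 to 98.6%, the rRNA genes 0.968 to 2.15% and the tRNA genes 0.389 to 0.668%. The 3 mRNA genes mt-Co1, mt-Cytb and mt-Nd2 together held 68.1% ± 2.78 (SD, n = 4) of the mitochondrial counts, and mt-Co1 alone held 39.6% ± 3.86. The mRNA genes thus made up nearly all of the mitochondrial reads, and liver 1 had the lowest total share. All 13 mRNA and both rRNA genes had at least 10 counts in every liver, while 10 of 22 tRNA genes did. How RNA was selected for the libraries was not given in the sources used here, so the split between classes describes these libraries and not the amounts in the tissue.

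**Figure D1:**
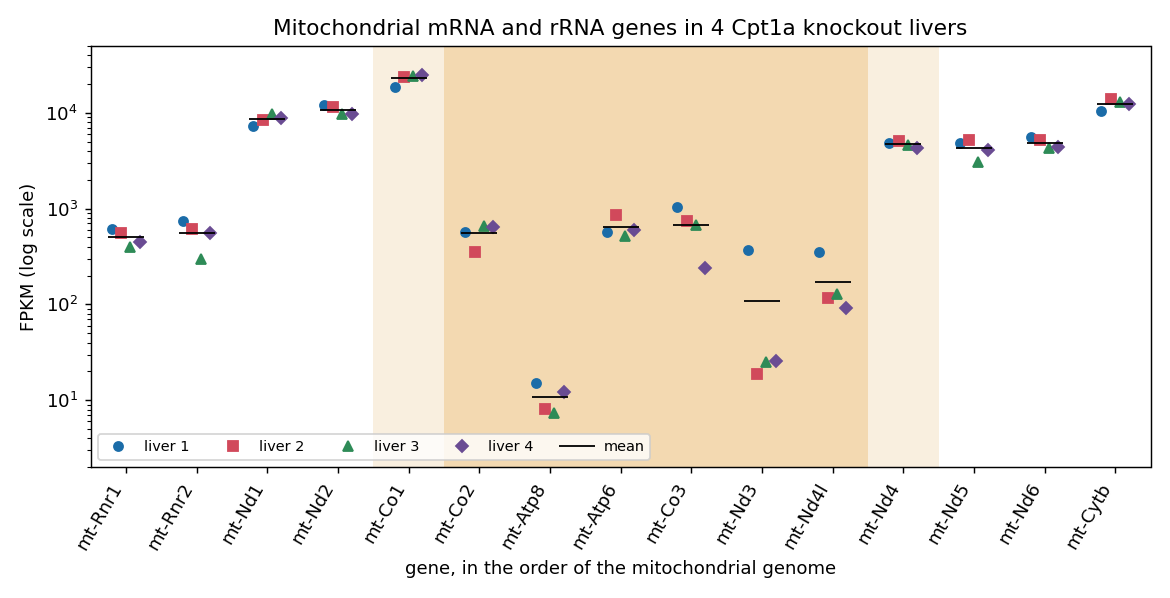
FPKM on a log axis for the 13 mRNA and 2 rRNA genes in the order of the mitochondrial genome, 1 point per liver (n = 4), with a black line at the mean. Dark shading marks the 6 mRNA genes that lie whole in the stretch copied to chromosome 1 (mean 10.8 to 676 FPKM), light shading those copied in part; the other 7 mRNA genes have means of 4324 to 22884 FPKM.

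Complex I, which takes electrons from NADH, draws 7 subunits from this genome. mt-Nd1 (chrMT:2751-3707) was at 7280, 8480, 9820 and 8840 FPKM in livers 1 to 4, a mean of 8606 ± 1047 (SD, n = 4). mt-Nd2 (chrMT:3914-4951) was at 12100, 11600, 9640 and 9750 FPKM, a mean of 10770 ± 1266. For mt-Nd2 livers 1 and 2 were the higher, whereas for mt-Nd1 liver 1 was the lowest and liver 3 the highest. mt-Nd4 (chrMT:10167-11544) was the steadiest of the mRNA genes, at 4800, 5070, 4610 and 4270 FPKM, a mean of 4687 ± 336. mt-Nd5 (chrMT:11742-13565) was at 4840, 5250, 3100 and 4100 FPKM, a mean of 4324 ± 941, with liver 3 lowest.

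mt-Nd6 (chrMT:13552-14070) is the one mRNA gene listed on the minus strand, and its last bases overlap those of mt-Nd5. It was at 5540, 5230, 4340 and 4390 FPKM, a mean of 4875 ± 604 (SD, n = 4). Its level was 0.892 ± 0.142 times the mean of the other 12 mRNA genes and 0.997 to 1.40 times that of mt-Nd5. Those 12 include the 6 genes of the copied stretch, at means of 10.8 to 676 FPKM, which lower that mean. The rest had means of 4324 to 22884 FPKM, and of these only mt-Nd4 and mt-Nd5 were below mt-Nd6. Whether strand was used in counting was not given, so reads from mt-Nd6 and from the RNA of the other strand cannot be told apart.

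The 2 short complex I genes, mt-Nd3 (chrMT:9459-9806) and mt-Nd4l (chrMT:9877-10173), were far lower and set liver 1 apart. mt-Nd3 was at 366, 18.7, 25.0 and 25.8 FPKM, and mt-Nd4l at 350, 118, 128 and 92.8 FPKM. Liver 1 was thus 19.6 times the lowest liver for mt-Nd3 and 3.78 times for mt-Nd4l. Without liver 1 the mean fell from 109 to 23.2 FPKM for mt-Nd3 and from 172 to 113 FPKM for mt-Nd4l. The nuclear copy of mt-Nd3, Gm28438, had 347, 347, 653 and 1014 counts in livers 1 to 4, against 1912, 98, 138 and 141 for mt-Nd3 itself. In livers 2 to 4 the copy held more counts than the mitochondrial gene, and in liver 1 the order was the reverse. mt-Nd4l itself had 1562, 526, 602 and 433 counts. Its copy Gm10222 had 480, 414, 305 and 1156 counts, and exceeded mt-Nd4l in liver 4.

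Complex III has 1 subunit from this genome, cytochrome b. mt-Cytb (chrMT:14145-15288) was at 10400, 13900, 13000 and 12500 FPKM, a mean of 12449 ± 1454 (SD, n = 4), with liver 1 lowest. Complex IV, cytochrome c oxidase, has 3. mt-Co1 (chrMT:5328-6872), its catalytic subunit, had the highest mean FPKM of all 54532 genes in these livers, at 18500, 23600, 24300 and 25100 FPKM, a mean of 22884 ± 2951. mt-Co2 (chrMT:7013-7696), which holds the copper site that receives electrons from cytochrome c, was at 568, 357, 652 and 649 FPKM, a mean of 557 ± 139. mt-Co3 (chrMT:8607-9390) was at 1040, 752, 675 and 238 FPKM, a mean of 676 ± 331. The deposited FPKM of mt-Co1 was 32.7 to 66.2 times that of mt-Co2 in the same liver, a ratio as uncertain as the counts of mt-Co2, whose sequence is wholly shared with its nuclear copy. Liver 4 was lowest for mt-Co3.

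ATP synthase has 2 subunits from this genome, both in its membrane part. mt-Atp6 (chrMT:7927-8607), which lines the proton path, was at 577, 858, 520 and 602 FPKM, a mean of 639 ± 150 (SD, n = 4). mt-Atp8 (chrMT:7766-7969), a small subunit beside it, was at 15.3, 8.15, 7.41 and 12.2 FPKM, a mean of 10.8 ± 3.70, which rests on 24 to 47 counts per liver. Both proteins are known to be read from one mRNA, yet the deposited level of mt-Atp6 was 37.6 to 105 times that of mt-Atp8. Their shared bases fall in 2 gene models at once, and how the authors' counting treated such reads was not given.

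Ranked by mean FPKM, each mRNA gene was compared with the next by its range over the 4 livers. mt-Co1 stood above mt-Cytb without overlap, mt-Cytb overlapped mt-Nd2, and mt-Nd2 overlapped mt-Nd1. mt-Nd6, mt-Nd4 and mt-Nd5 came below mt-Nd1 without overlap and overlapped each other. mt-Co3, mt-Atp6, mt-Co2, mt-Nd4l and mt-Nd3 came below mt-Nd5 without overlap. Among these 5, mt-Co2 and mt-Nd4l did not overlap, but mt-Co3 overlapped all the others, and mt-Nd3 reached the range of mt-Co2 through liver 1. mt-Atp8 was last, below all of them. All 6 genes of the copied stretch were thus below all 7 other mRNA genes, with mean levels of 10.8 to 676 against 4324 to 22884 FPKM. The 6 genes also varied more, with an SD of log2(FPKM + 1) over livers of 0.31 to 1.98 (median 0.65), against 0.10 to 0.33 (median 0.18) for the other 7. The median over all 8967 genes that averaged 100 counts or more was 0.18.

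**Figure D2:**
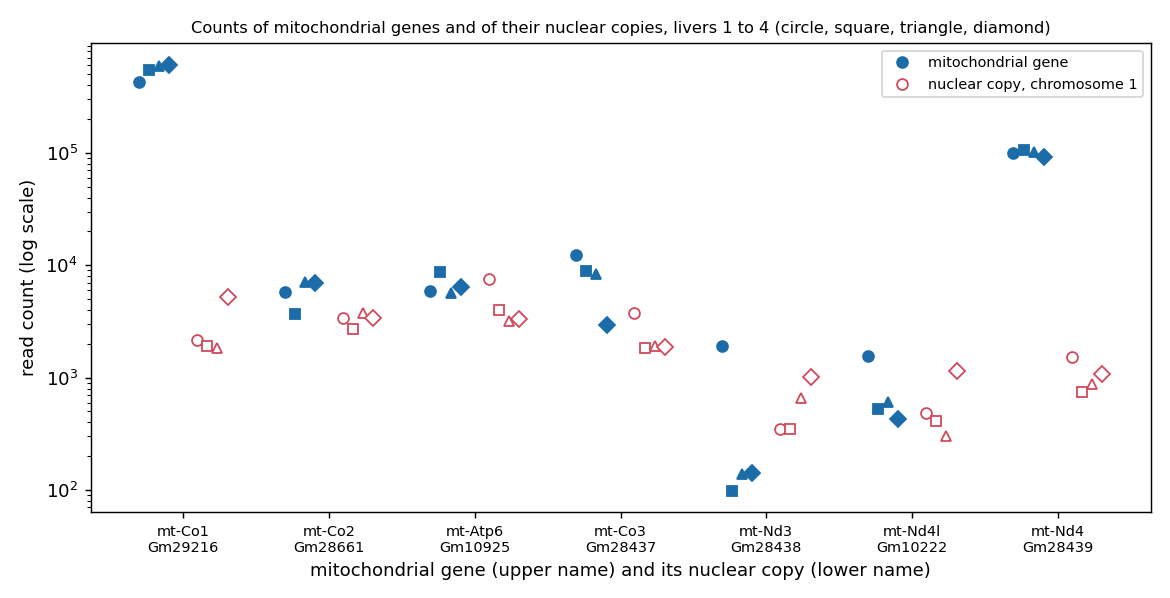
Read counts on a log axis for the 7 mitochondrial genes with a copy on chromosome 1 (filled, left of each pair) and for that copy (open, right), 1 point per liver, livers 1 to 4 as circle, square, triangle and diamond. The copies of mt-Co2, mt-Atp6 and mt-Co3 reach 1854 to 7502 counts, within 1 order of magnitude of the mitochondrial gene. The copy exceeds the gene in 3 of 4 livers for mt-Nd3, in liver 1 for mt-Atp6 (7502 against 5896 counts) and in liver 4 for mt-Nd4l.

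The nuclear copies carried sizeable counts. The 7 pseudogenes of the stretch together had 19147, 11937, 12579 and 16972 counts in livers 1 to 4. The 11 mitochondrial genes that lie whole in it had 27486, 21980, 21874 and 16981. Gm10925, the copy of mt-Atp6, was at 434 ± 206 FPKM (SD, n = 4), Gm29216, of the end of mt-Co1, at 363 ± 205, and Gm28661, of mt-Co2, at 315 ± 37.1. Gm28437, of mt-Co3, was at 196 ± 82.3 FPKM, Gm10222 at 129 ± 82.4, Gm28438 at 110 ± 56.9 and Gm28439, of the start of mt-Nd4, at 78.3 ± 26.8. On chromosome 2, Gm13340 was at 32.5 ± 6.74 FPKM. With at most 1 differing base per annotated copy, reads of either origin cannot be told apart by sequence over nearly all aligned bases. How reads with more than one equal match were counted was not given. The values of all 6 genes of the copied stretch are therefore uncertain. For mt-Atp8 this rests on its position, since no annotated copy covers it whole.

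The 2 rRNA genes form the core of the mitochondrial ribosome. mt-Rnr1 (chrMT:70-1024), of the small subunit, was at 620, 551, 401 and 450 FPKM, a mean of 505 ± 98.7 (SD, n = 4). mt-Rnr2 (chrMT:1094-2675), of the large subunit, was at 749, 611, 301 and 558 FPKM, a mean of 555 ± 187. Liver 3 was the lowest for both, and the ratio of mt-Rnr2 to mt-Rnr1 was 0.751 there against 1.11 to 1.24 in the other 3 livers. Both rRNAs stood far below the mRNA next to them, with mt-Rnr2 at 0.0306 to 0.103 times the FPKM of mt-Nd1.

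Mitochondrial tRNAs are 59 to 75 bases long in this annotation, and each carries 1 amino acid to the codon that its anticodon pairs with. The 7 shown are among those that the deposited comparisons turn on or that held the most counts. They are given as DNA of the gene's own strand with the anticodon in capitals.
mt-Tg (glycine): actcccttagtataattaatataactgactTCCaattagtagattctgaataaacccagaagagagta
mt-Ts2 (serine, AGY codons): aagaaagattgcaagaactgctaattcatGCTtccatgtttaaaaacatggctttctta
mt-Tl2 (leucine, CUN codons): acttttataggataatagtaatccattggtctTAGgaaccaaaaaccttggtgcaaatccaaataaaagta
mt-Tc (cysteine): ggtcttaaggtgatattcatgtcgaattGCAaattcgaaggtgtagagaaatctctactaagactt
mt-Te (glutamate): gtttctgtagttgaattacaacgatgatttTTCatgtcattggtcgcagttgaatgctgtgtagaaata
mt-Tr (arginine): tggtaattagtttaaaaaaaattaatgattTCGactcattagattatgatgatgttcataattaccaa
mt-Tp (proline): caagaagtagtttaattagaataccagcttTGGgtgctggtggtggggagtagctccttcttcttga

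The 8 tRNA genes listed on the minus strand held 8058, 5389, 5718 and 6671 counts in livers 1 to 4, and the 14 on the plus strand 232, 170, 271 and 496. The genes listed on the minus strand thus held more counts in every liver, and a single gene, mt-Tp (chrMT:15356-15422), held most of their counts. Whether strand was used in counting was not given, so reads of a tRNA gene and of RNA from the other strand cannot be told apart. mt-Tp was at 5410, 3290, 3950 and 3890 FPKM, a mean of 4134 ± 900 (SD, n = 4), from a mean of 4262 counts on 67 bases. mt-Te (chrMT:14071-14139) followed at 1370, 813, 707 and 858 FPKM, a mean of 937 ± 295. mt-Tc (chrMT:5192-5257) was at 940, 935, 445 and 976 FPKM, a mean of 824 ± 253, with liver 3 lower than the other 3. These 3 genes stood above every other tRNA gene, and all 3 are listed on the minus strand. FPKM on gene models this short was not compared with that of the mRNA genes.

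The next levels were those of mt-Tn (asparagine), 168 ± 85.0 FPKM, and mt-Ty (tyrosine), 165 ± 71.2 FPKM (SD, n = 4). Among plus-strand genes mt-Tl1 (leucine, UUR codons) was at 73.2 ± 44.4 FPKM, mt-Ts2 at 59.2 ± 11.2, mt-Tl2 at 56.3 ± 31.7, mt-Tw (tryptophan) at 38.9 ± 28.3 and mt-Th (histidine) at 23.0 ± 12.6. Liver 4 was highest for each of these 7 genes. Of the rest, mt-Tm (methionine) had 53 counts over the 4 libraries, mt-Ti 36, mt-Ta 29, mt-Tq 22, mt-Tr 14 and mt-Ts1 9. mt-Tk, mt-Tg and mt-Tt had 1 count each, in liver 3 for mt-Tk and in liver 1 for mt-Tg and mt-Tt. mt-Tf, mt-Tv and mt-Td had none, which allows up to 3 counts per library, or 0.213 to 0.228 per 1000000 counts, for counting error alone. Whether these counts come from tRNAs or from longer uncut RNA over the same bases was not tested.

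**Figure D3:**
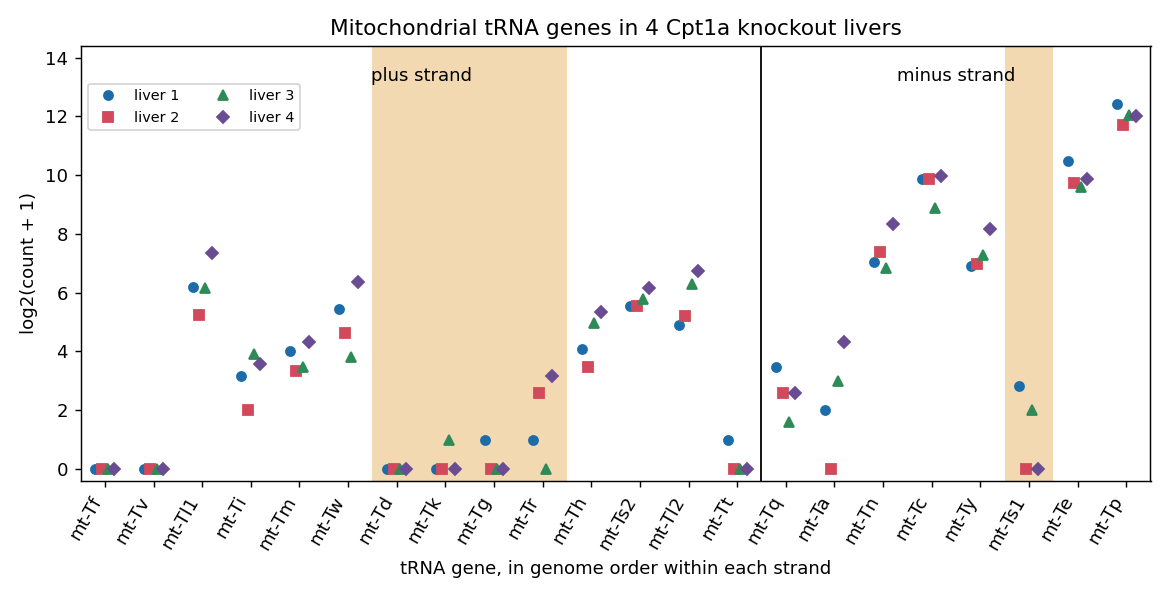
log2(count + 1) of the 22 mitochondrial tRNA genes, 1 point per liver (n = 4), in genome order within the plus strand (left of the line) and the minus strand (right). Shading marks the 5 tRNA genes of the stretch copied to chromosome 1, none above 8 counts in any liver, and mt-Tp, mt-Te and mt-Tc on the minus strand hold the most counts.

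The first contrast asks how RNA levels in Cpt1a knockout livers differ from the reference group. Of the 37 mitochondrial genes, 10 were higher in the authors' deposited table at an adjusted p below 0.05, and 1 was lower. Over all 16862 genes that the table's adjustment covered, 6.81% were higher and 7.6% lower by the same rule. This table stops at an unadjusted p of 0.05. That left at least 4424 genes in all, of which 18 were mitochondrial, 17 of these with a positive value. For genes not listed, the sum of the authors' other 2 contrasts (Cpt1a knockout against group labelled Cpt2, plus group labelled Cpt2 against reference) is given. Where both were at hand the sum differed from the authors' deposited table by at most 0.04 on the log2 scale over 17 mitochondrial genes. By these sums, from the authors' deposited tables, the 13 mRNA genes had a median log2 fold change of 0.86, against 0.01 over all 17054 genes with a sum.

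Among complex I genes, mt-Nd2 rose by 0.87 (adjusted p = 0.00751) and mt-Nd5 by 0.91 (adjusted p = 0.00226) on the log2 scale in the authors' deposited table. mt-Nd1 (0.62, adjusted p = 0.0614) and mt-Nd6 (0.58, adjusted p = 0.144) were listed in the authors' deposited table without passing. mt-Nd3, mt-Nd4l and mt-Nd4 were not listed, and their sums over the authors' deposited tables were 1.30, 0.44 and 0.23. The value for mt-Nd3 stands on a gene that liver 1 sets apart. Cytochrome b, mt-Cytb, was not listed either, with a sum of 0.20 from the authors' deposited tables.

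In complex IV, mt-Co2 rose by 1.40 (adjusted p = 3.95e-08) in the authors' deposited table. mt-Co1 (0.44, adjusted p = 0.161) and mt-Co3 (1.59, adjusted p = 0.148) did not pass in the authors' deposited table, although mt-Co3 had the largest value of the mRNA genes listed. Both ATP synthase genes passed in the authors' deposited table, mt-Atp6 with a rise of 1.30 (adjusted p = 4.92e-09) and mt-Atp8 with 1.39 (adjusted p = 0.0326). Of the 5 mRNA genes that rose, 3 (mt-Co2, mt-Atp6 and mt-Atp8) thus lie in the copied stretch. The 6 mRNA genes of the stretch had a median sum of 1.34 from the authors' deposited tables, and the other 7 had 0.57. All 7 others were positive too, at 0.20 to 0.90 in those sums from the authors' deposited tables.

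The nuclear copies named here had positive values too, though within pairs of gene and copy the sizes differed in both directions. In the authors' deposited table Gm28438, the copy of mt-Nd3, rose by 3.14 (adjusted p = 3.35e-18), Gm10222 by 1.59 (adjusted p = 0.000352) and Gm28437 by 1.502 (adjusted p = 1.26e-06). Gm13340 rose by 1.36 (adjusted p = 1.36e-07), Gm29216 by 1.33 (adjusted p = 0.000449), Gm10925 by 0.87 (adjusted p = 0.0305) and Gm28661 by 0.79 (adjusted p = 0.00159) in the authors' deposited table. Gm28439, at 0.59, did not pass in the authors' deposited table (adjusted p = 0.114). How far the copies' reads come from mitochondrial RNA, or the reverse, was not tested.

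Of the rRNA genes, mt-Rnr2 rose by 0.93 (adjusted p = 0.0128) in the authors' deposited table, and mt-Rnr1 had 0.61 (adjusted p = 0.0718). Of the tRNA genes, 4 rose in the authors' deposited table: mt-Ts2 by 2.10 (adjusted p = 0.000136), mt-Tl2 by 1.15 (adjusted p = 0.0411), mt-Tc by 0.96 (adjusted p = 0.0131) and mt-Te by 0.86 (adjusted p = 0.00152). mt-Tn (1.55) and mt-Th (1.20) were listed without passing in the authors' deposited table. The one gene called lower in the authors' deposited table was mt-Tg, with a fitted log2 fold change of -5.08 (adjusted p = 0.00127). The 4 knockout libraries held a single count of mt-Tg, so that value depends on the authors' fit and gives no size of change.

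**Figure D4:**
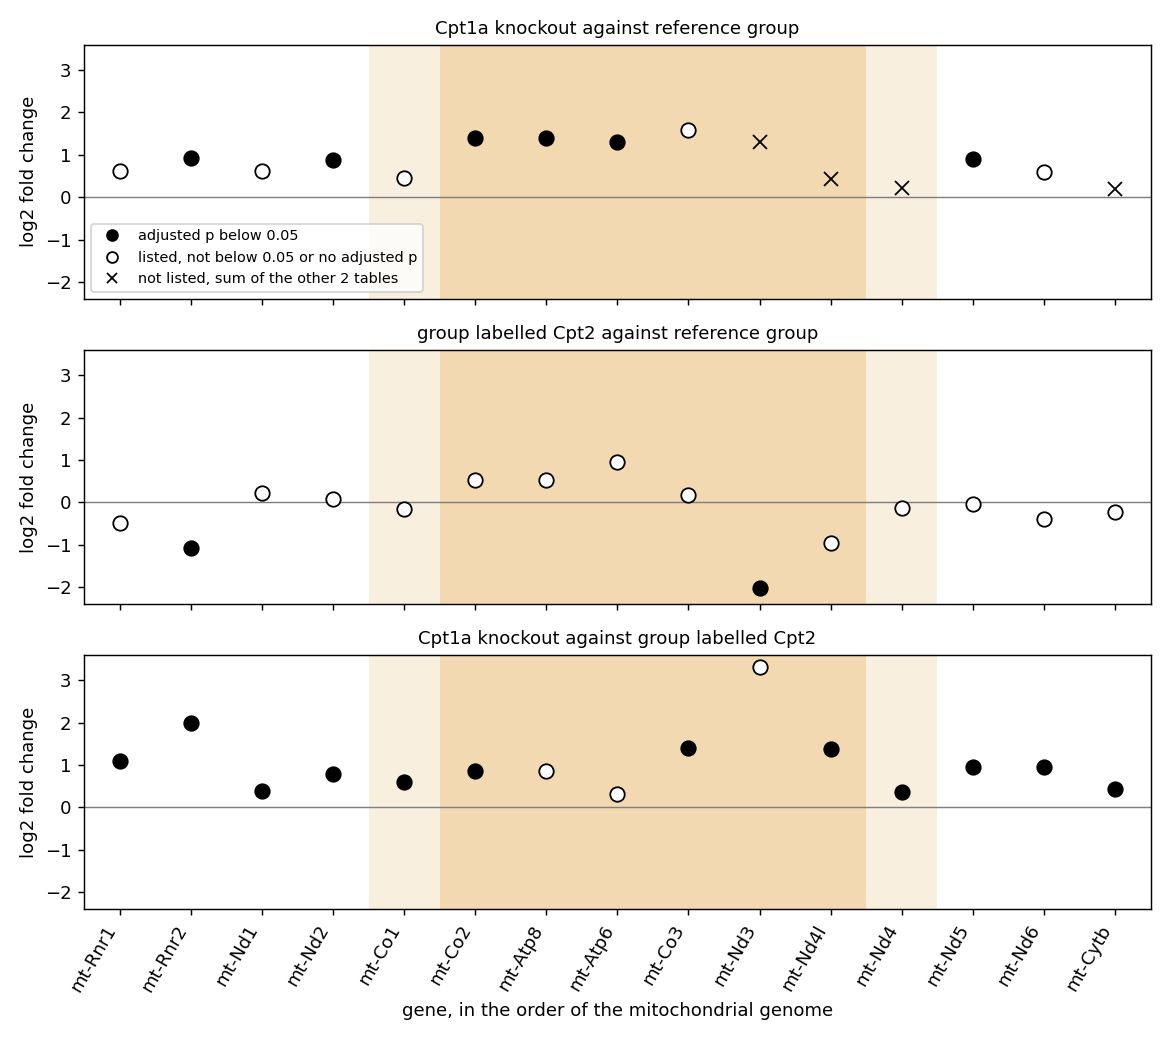
log2 fold changes from the authors' deposited tables for the 13 mRNA and 2 rRNA genes in genome order, in the 3 contrasts; a filled circle has an adjusted p below 0.05, an open circle does not or has no adjusted p, and a cross is the sum of the other 2 tables for a gene not listed. Shading marks the stretch copied to chromosome 1 as a whole (dark) or in part (light). All 15 values are above 0 in the top and bottom panels, and values lie on both sides of 0 in the middle one.

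The second contrast sets the group labelled Cpt2 against the same reference, with the Cpt2 gene itself at -0.07 (adjusted p = 0.837) in the authors' deposited table. Here no mitochondrial gene was higher and 6 were lower at an adjusted p below 0.05 in the authors' deposited table, against 10.3% higher and 10.7% lower over its 17475 tested genes. At an unadjusted p below 0.05, for which the share of all genes was not computed, 1 mitochondrial gene was higher in the authors' deposited table, mt-Atp6 (0.96, adjusted p = 0.156). The mRNA genes as a group had a median log2 fold change of -0.05 in the authors' deposited table, against -0.03 over all its genes. Of the 13 mRNA genes only mt-Nd3 passed in the authors' deposited table, at -2.01 (adjusted p = 1.07e-09), while its nuclear copy Gm28438 was higher by 1.20 (adjusted p = 0.00209). The 12 other mRNA genes ranged from -0.95 for mt-Nd4l to 0.96 for mt-Atp6 in the authors' deposited table.

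Of the rRNA genes, mt-Rnr2 fell by 1.07 (adjusted p = 0.000547), and mt-Rnr1 had -0.49 (adjusted p = 0.145) in the authors' deposited table. Of 17 tRNA genes listed, 16 had a negative value, with a median of -1.04, and 4 passed in the authors' deposited table. These were mt-Tc at -1.72 (adjusted p = 9.39e-05), mt-Tm at -1.86 (adjusted p = 0.0392), mt-Tr at -4.65 (adjusted p = 0.00411) and mt-Tg at -5.81 (adjusted p = 5.98e-05) in the authors' deposited table. Counts of the group labelled Cpt2 and of the reference group were not used here, so the depth behind mt-Tr and mt-Tg was not examined. The Cpt1a knockout libraries held 14 and 1 counts of mt-Tr and mt-Tg. Nuclear small RNA genes gave values in the same direction, with a median of -0.23 over 101 genes in the authors' deposited table, and their part in the tRNA values was not tested.

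The third contrast sets the Cpt1a knockout directly against the group labelled Cpt2. All 31 mitochondrial genes listed in the authors' deposited table had a positive value, 22 were higher at an adjusted p below 0.05 and none was lower. Of all 17755 genes tested in the authors' deposited table, the share higher was 14.2% and the share lower 14.6%. At an unadjusted p below 0.05, 26 mitochondrial genes were higher and still none lower in the authors' deposited table. The share of all genes at that looser rule was not computed. The Cpt2 samples were sequenced for an earlier series, so the series a library belongs to and its genotype cannot be told apart in this contrast. Whether the reference libraries were prepared together with those of the Cpt1a knockout was not given in the sources used here, so preparation and genotype cannot be told apart in the first contrast either.

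Of the 13 mRNA genes 10 rose, with a median over all 13 of 0.86 in the authors' deposited table against 0.05 over all its genes. Among complex I genes mt-Nd6 rose by 0.96 (adjusted p = 2.11e-05), mt-Nd5 by 0.95, mt-Nd2 by 0.78 (adjusted p = 1.19e-07), mt-Nd1 by 0.39 and mt-Nd4 by 0.36 in the authors' deposited table. mt-Nd4l rose by 1.39 (adjusted p = 0.0382), and mt-Nd3 was at 3.31 with no adjusted p in the authors' deposited table. mt-Cytb rose by 0.42 (adjusted p = 0.00478), mt-Co1 by 0.59 (adjusted p = 0.000224), mt-Co2 by 0.86 (adjusted p = 0.0232) and mt-Co3 by 1.41 (adjusted p = 0.0263) in the authors' deposited table. The ATP synthase genes did not pass in the authors' deposited table, mt-Atp8 at 0.87 (adjusted p = 0.0854) and mt-Atp6 at 0.33 (adjusted p = 0.67). The 7 mRNA genes outside the copied stretch or only partly in it all rose, at 0.36 to 0.96 in the authors' deposited table.

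Both rRNA genes rose more than most mRNA genes, mt-Rnr2 by 1.99 (adjusted p = 2.48e-12) and mt-Rnr1 by 1.09 (adjusted p = 1.06e-07) in the authors' deposited table. Of the tRNA genes, 10 rose in the authors' deposited table, among them mt-Tn by 2.90 (adjusted p = 1.41e-11), mt-Ts2 by 2.75 (adjusted p = 9.14e-09), mt-Tc by 2.67 (adjusted p = 2.34e-06), mt-Th by 2.17 and mt-Tp by 1.30 (adjusted p = 8.94e-12). The others were mt-Tl2 (1.86), mt-Tm (1.82), mt-Tw (1.68), mt-Tl1 (1.46) and mt-Te (1.12) in the authors' deposited table. mt-Ty had 1.72 (adjusted p = 0.0544) in the authors' deposited table. Nuclear small RNA genes had a median of 0.34 over 101 genes in the authors' deposited table, and the nuclear copies Gm29216 (1.74), Gm28437 (1.71), Gm10222 (1.87) and Gm28438 (1.92) rose too.

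The 3 contrasts share groups, so they are not independent, and their values are set side by side here only as values. For mt-Rnr2 the log2 fold change was 0.93 in the Cpt1a knockout and -1.07 in the group labelled Cpt2, each against the reference, and for mt-Tc it was 0.96 and -1.72 in the authors' deposited tables. For mt-Nd2 the same pair was 0.87 and 0.07, for mt-Nd5 0.91 and -0.05, and for mt-Co2 1.40 and 0.53 in the authors' deposited tables. The direct contrast of both groups, with its adjusted p above, is the test of each of these differences. The 5 genes passed it in the authors' deposited table, but they are examples from the 10 higher in the first contrast. Of the others, mt-Ts2, mt-Tl2 and mt-Te passed it too. mt-Atp6 (1.30 and 0.96 against the reference) and mt-Atp8 (1.39 and 0.52) did not (adjusted p = 0.67 and 0.0854) in the authors' deposited table.

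Few nuclear genes that act on mitochondrial DNA and RNA rose in the Cpt1a knockout. Over all genes, 6.81% were higher and 7.6% lower in the first contrast, 10.3% and 10.7% in the second and 14.2% and 14.6% in the direct one, against which the counts of each list below are to be read. These shares are by adjusted p. For counts at an unadjusted p below 0.05, shares over all genes were not computed, and they would be larger. Of 10 transcription genes, among them the polymerase Polrmt and the factor Tfam, none passed in any contrast of the authors' deposited tables, with 1, 0 and 2 at an unadjusted p below 0.05 in the 3 contrasts in turn. Polrmt had -0.56 (adjusted p = 0.143) against the reference in the authors' deposited table. Of 18 replication and upkeep genes, 1 was higher and 0 lower in the Cpt1a knockout against the reference, the pyrimidine nucleotide carrier Slc25a36 at 0.82 (adjusted p = 0.0136) in the authors' deposited table. Tk2, a thymidine kinase, had 0.51 (adjusted p = 0.052) and the helicase Twnk -0.40 (adjusted p = 0.0734) in the authors' deposited table. In the group labelled Cpt2, 1 of the 18 was higher (Top1mt) and 0 lower in the authors' deposited table. In the direct contrast 2 were higher (Slc25a36 and Polg2) and 4 lower (Atad3a, Lig3, Top1mt and Tymp) in the authors' deposited table.

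Among 25 genes of RNA cleavage, tailing, stability and decay, 5 were lower and none higher in the Cpt1a knockout against the reference in the authors' deposited table, where 7.6% of all genes were lower and 6.81% higher. At an unadjusted p below 0.05, 11 of the 25 were listed and all were negative in the authors' deposited table. That looser rule listed at least 4424 genes in all, beside 16862 that the adjustment covered. Lrpprc, which keeps mitochondrial mRNAs stable, fell by 0.71 (adjusted p = 0.00594) and the poly(A)-removing enzyme Pde12 fell by 0.68 (adjusted p = 0.0119) in the authors' deposited table. The helicase Dhx30 fell by 0.63 (adjusted p = 0.0234) and the helicase Ddx28 by 0.56 (adjusted p = 0.0352) in the authors' deposited table, and both are known for assembly of the mitochondrial ribosome. The helicase Supv3l1, of the degradosome, had -0.50 (adjusted p = 0.0458) in the authors' deposited table. In the group labelled Cpt2 against the reference 3 of the 25 were higher (Ddx28, Rexo2 and Tbrg4) and 2 lower (Fastkd1 and Ptcd3), and in the direct contrast 6 were lower and none higher, by the authors' deposited tables.

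Of 20 tRNA and rRNA modification genes, 1 was higher and 2 lower in the Cpt1a knockout against the reference in the authors' deposited table, shares near those over all its genes (6.81% and 7.6%). The tRNA methylthiolation enzyme Cdk5rap1 fell by 1.33 (adjusted p = 3.95e-08), the rRNA methyltransferase Mrm3 fell by 0.96 (adjusted p = 0.00643) and the pseudouridine synthase Trub2 rose by 0.66 (adjusted p = 0.0166) in the authors' deposited table. Nsun3, a tRNA methyltransferase, had 0.48 (adjusted p = 0.118) in the authors' deposited table. In the group labelled Cpt2, 4 were higher (Trub2, Pus1, Qtrt1 and Rpusd4) and 2 lower (Cdk5rap1 and Rpusd3) in the authors' deposited table. In the direct contrast 1 was higher (Nsun4) and 3 lower (Mrm3, Pus1 and Qtrt1) in the authors' deposited table. Of 9 coactivators and nuclear factors of mitochondrial biogenesis, 2 were lower and 0 higher against the reference, Ppargc1a at -1.23 (adjusted p = 0.00264) and Gabpa at -0.48 (adjusted p = 0.04) in the authors' deposited table. Esrra had -0.69 (adjusted p = 0.0821) in the authors' deposited table. In the group labelled Cpt2, 1 of the 9 was higher (Myc) and 0 lower, and in the direct contrast 3 were lower (Myc, Nrf1 and Pprc1) and none higher in the authors' deposited tables.

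Nuclear subunits of the same complexes were called in both directions. Of 36 nuclear complex I subunits 2 were higher and 3 lower in the Cpt1a knockout against the reference in the authors' deposited table, shares near the 6.81% and 7.6% over all its genes. The core subunit Ndufs1 fell by 0.86 (adjusted p = 2.84e-06) and the accessory subunit Ndufa9 fell by 0.57 (adjusted p = 0.00548), while the accessory subunits Ndufb2 and Ndufb4 rose by 0.92 (adjusted p = 0.000189) and 0.76 (adjusted p = 0.000519) in the authors' deposited table. The core subunit Ndufv1 fell by 0.65 (adjusted p = 0.00648) in the authors' deposited table. Of 9 complex III subunits none passed and 4 had an unadjusted p below 0.05 in the authors' deposited table, Uqcr10 at 0.57 and Uqcrc1, Cyc1 and Uqcrc2 at -0.42, -0.35 and -0.35. Of 11 complex IV subunits 1 was higher, Cox7c at 0.82 (adjusted p = 0.000332), with Cox4i1 at 0.50 and Cox7a2 at 0.51 without passing in the authors' deposited table.

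Of 18 nuclear ATP synthase genes with values in the authors' deposited tables, 5 were higher and 2 lower against the reference. Of all genes in that contrast, 6.81% were higher and 7.6% lower. Atp5mpl (0.83, adjusted p = 0.00185) and Atp5e (1.07, adjusted p = 0.00311) rose, and the catalytic head subunits Atp5a1 and Atp5b both fell by 0.60 (adjusted p = 0.00356 and 0.00386) in the authors' deposited table. Usmg5 (1.00), Atp5l (0.60) and Atp5j2 (0.54) were the other members that rose in the authors' deposited table. Of the 4 subunits of complex II, which has none from the mitochondrial genome, 1 fell, Sdha at -0.73 (adjusted p = 0.000617) in the authors' deposited table.

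In the group labelled Cpt2 against the reference, higher and lower counts were 0 and 2 for complex I, 0 and 0 for complex III, 0 and 0 for complex IV, 0 and 1 for ATP synthase and 0 and 1 for complex II in the authors' deposited table, with 10.3% and 10.7% over all its genes. The lower genes were Ndufs8 and Ndufb5 of complex I, Atp5j2 of ATP synthase and Sdhb of complex II in the authors' deposited table. At an unadjusted p below 0.05 these lists had 5, 0, 1, 3 and 2 genes in the authors' deposited table. In the direct contrast the higher and lower counts were 9 and 3, 1 and 0, 5 and 0, 8 and 2, and 1 and 1, in the same order, in the authors' deposited table, with 14.2% and 14.6% over all its genes. Named for counts of 5 or fewer, the lower ones were Ndufs1, Ndufa9, Ndufv1, Atp5a1, Atp5b and Sdha, and the higher ones Uqcrh, Sdhb, Cox7c, Cox4i1, Cox7a2, Cox6c and Ndufa4 in the authors' deposited table. The nuclear genes of these lists had a median log2 fold change of 0.07, -0.18 and 0.20 in the 3 contrasts of the authors' deposited tables. This covers 78 genes, and the first value is a sum of the other 2 contrasts. The mitochondrial mRNA genes had 0.86, -0.05 and 0.86. Split by gene length into 4 equal sets, nuclear protein-coding genes had a median of 0.03 in the shortest set and -0.06 to -0.02 in the other sets in the first contrast, from the authors' deposited tables.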

How the data were processed

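Read counts per gene were deposited by the authors for 4 livers as whole numbers, and FPKM as the same counts scaled by gene length and library size. The submitters' processing notes name HISAT2 and the build GRCm38, also called mm10; the counting tool, the annotation release, strand use, library selection and the authors' test were not given in the sources used here. Gene lengths are the authors', per the file headers. The deposited comparison tables give log2 fold changes, p-values and adjusted p-values per gene; a gene with an adjusted p of exactly 1 or none was taken as not adjusted. Another 8 columns of per-sample values match no sample and were not used. No 2 libraries agreed within sampling noise (chi-square per gene 18.7 to 61.4).

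Members are the genes on chromosome MT; a gene was called at an adjusted p below 0.05, and shares were computed with pandas 2.3.3 and numpy 2.4.6 (Python 3.11.15), tested on simulated data. Members and gene lists were chosen with earlier results of these data known. Every mRNA and rRNA gene was named; tRNA genes were named with at least 10 counts in every liver, a call, or a liver that stood apart, and the rest by counts; nuclear lists by up to 4 genes with the smallest adjusted p in the first contrast, beside genes named after their values were seen because they complete a count of 5 or fewer; nuclear copies at a mean count of at least 100. No genome sequence was used: copies were found by aligning GENCODE M21 transcripts with blastn 2.17.0 (identity at least 90%, at least 200 bases) in place of the genome. Means over the 4 livers carry the SD, and counts limit precision only for counting error. Alternatives covered thresholds, low counts, scaling, the copies and leaving out each liver. Values by gene length, RNA class and copied stretch were chosen after seeing the data.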

Additional observations from a re-analysis of the deposited data

Results flagged for a closer look

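In 34 mitochondrial genes with a count, the gap between 1 liver and the nearest other, divided by the range over the 4 livers, was compared with Dixon's 95% critical value. For normally distributed values chance exceeds it in about 1 in 20 genes, a rate that does not hold for genes with few counts. It was exceeded in 6. mt-Nd3 stood apart in liver 1 at 366 FPKM, against 18.7 to 25.8 FPKM in the other 3, and mt-Nd4l in liver 1 at 350 FPKM, against 92.8 to 128. mt-Tc stood apart in liver 3 at 445 FPKM, against 935 to 976. The other 3 rest on a single count each, which fixes the ratio at its largest value, so they could not have stayed below. These were mt-Tk at 0.97 FPKM in liver 3, and mt-Tg at 0.98 and mt-Tt at 0.994 FPKM in liver 1.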

How the results depend on the processing

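Of 153 alternative values for 44 results, 136 kept their direction and stayed within 1 SD, or within 1.5 times for counts and medians, 16 moved and 1 changed sign. In the Cpt1a knockout against the reference, mitochondrial genes higher went from 10 to 17 by unadjusted p, 6 at an adjusted p below 0.01 and 5 at a change of at least 2-fold, and the 1 lower gene became 0 among those averaging 10 counts or more. In the group labelled Cpt2 against the reference, unadjusted p gave 1 higher and 12 lower. In the direct contrast, at least 2-fold gave 14 higher. Shares over all genes were not computed at these other rules, so the counts do not set the members apart from other genes. In the first contrast, unadjusted p listed at least 4424 genes in all, beside 16862 that the adjustment covered. The median of the mRNA genes in the group labelled Cpt2 went from -0.05 to 0.0109 without mt-Nd3. The cause of these moves was not tested, beyond the stricter or looser rule itself. Of 75 FPKM alternatives 66 stayed within 1 SD, and the others came from scaling to nuclear counts. Leaving out 1 of 4 livers cannot move a mean by as much as 1 SD. Those alternatives could not fail this rule, and they say nothing about stability, here or among the 136. The SD is wide where 1 liver stands apart: without liver 1 mt-Nd3 went from 109 to 23.2 FPKM and mt-Nd4l from 172 to 113. Leaving out 1 liver gave mitochondrial shares of 9.7 to 10.4%. Leaving out a library of the authors' contrasts was not run. No paired analysis was possible because the livers form 1 group. Low counts limit mt-Atp8 and 12 tRNA genes.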
